A study of Mus musculus with 44 samples.

Results

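Slit2, Slit3, Robo1, Robo2, Robo4, Sema3a, Sema3c, Sema3d, Nrp1 and Nrp2 are genes of the SLIT-ROBO and class 3 semaphorin-neuropilin guidance systems, and they were followed here in the back skin of mice given bleomycin. The set was chosen by gene name from the secreted ligands and receptors of these pathways, with earlier results of these data known. It is not complete, as Slit1, Robo3, other semaphorins and the plexins were kept in separate lists. All 10 were found once among the 43411 genes of the table. The study measured collagen architecture and RNA in the same biopsies and linked genes for cell guidance and migration to the alignment of collagen bundles, so the question here was how the guidance ligands and receptors themselves behaved during injury and recovery. All mice were wild-type female C57Bl/6, 8 weeks old when dosing began. Bleomycin, a DNA-damaging drug that provokes skin fibrosis, was injected under the back skin every day at 1 U/mL in 100 µL. The 5 groups were saline (n = 10), 2 weeks of bleomycin (n = 10), 4 weeks of bleomycin (n = 10), 4 weeks of bleomycin followed by 6 weeks without treatment (6 weeks of recovery, n = 6) and the same with 10 weeks without treatment (10 weeks of recovery, n = 8). Each of the 44 mice gave 1 whole-skin RNA library. The labels do not say when the saline mice were harvested, so that age at harvest and recovery cannot be told apart in comparisons of recovered with saline skin.

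SLIT proteins are large secreted ligands that bind ROBO receptors and, in most settings, repel growing axons or migrating cells. Robo1 and Robo2 are receptors of neurons and many other cell types, whereas Robo4 is a shorter receptor known mainly from blood vessel endothelium. Class 3 semaphorins are secreted cues that act through plexins, with the neuropilins Nrp1 and Nrp2 as the ligand-binding partners, and neuropilins also bind vascular endothelial growth factors. In skin these systems are known for shaping sensory nerves and blood and lymphatic vessels.

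Slit2 and Slit3 also carry a small RNA. The reference annotation (RefSeq, GRCm38.p6) placed the same mature microRNA, miR-218-5p, in intron 14 of the 36-exon transcripts of both genes, at chr5:48223966-48223986 in Slit2 and at chr11:35616840-35616860 in Slit3, both on the + strand. It is shown here because its host genes are ligands and its seed (bases 2 to 8, in capitals) matched the 3′ UTR of a ligand and of ROBO receptors.
miR-218-5p: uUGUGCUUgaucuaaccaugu
The 7-base match to the seed, AAGCACA on the sense strand, was found in the 3′ UTRs of Slit2 (at bases 302 and 2605 of 3492), Robo1 (base 986 of 1733), Robo2 (base 464 of 1474) and Sema3d (base 601 of 3646), and in none of the other 6 members. Over all annotated genes, 12.2% of 21657 3′ UTRs held it. Their median length was 780 bases, and each member with a match had a longer 3′ UTR, so that this share is not matched for length. The sites are given with the match in capitals.
Slit2, first site: gccaatactagcagAAGCACAt
Slit2, second site: gataattattagcaAAGCACAt
Robo1: ttttttggttttaaAAGCACAa
Robo2: ttttatttggtgatAAGCACAa
Sema3d: ccttttgattgctcAAGCACAg
Small RNAs were not measured, and a match is a description of the letters and not of a working site.

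The promoters of the 4 members that differed from saline by more than 1.5-fold at some stage are shown from 250 bases before to 50 bases after the RefSeq start, all on the + strand of GRCm38.p6. Capitals mark 2 short motifs on either strand, the GC box (GGGCGG or CCGCCC) and the ETS core (GGAAG or CTTCC), which 35.7% and 71.4% of 32851 promoters of this length held.
Slit3, chr11:35121206-35121505: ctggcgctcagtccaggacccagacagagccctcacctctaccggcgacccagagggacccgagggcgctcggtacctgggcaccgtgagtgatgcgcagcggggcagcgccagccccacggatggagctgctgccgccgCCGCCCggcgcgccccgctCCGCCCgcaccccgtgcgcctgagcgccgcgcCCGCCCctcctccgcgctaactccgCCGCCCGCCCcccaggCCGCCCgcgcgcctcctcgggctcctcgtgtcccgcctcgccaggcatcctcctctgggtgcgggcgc
Robo1, chr16:72662899-72663198: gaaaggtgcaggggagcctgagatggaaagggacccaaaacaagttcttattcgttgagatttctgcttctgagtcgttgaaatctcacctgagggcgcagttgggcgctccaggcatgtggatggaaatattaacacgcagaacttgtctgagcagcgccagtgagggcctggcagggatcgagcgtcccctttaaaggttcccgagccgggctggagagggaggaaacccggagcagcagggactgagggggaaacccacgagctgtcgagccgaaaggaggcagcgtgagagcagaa
Robo4, chr9:37401722-37402021: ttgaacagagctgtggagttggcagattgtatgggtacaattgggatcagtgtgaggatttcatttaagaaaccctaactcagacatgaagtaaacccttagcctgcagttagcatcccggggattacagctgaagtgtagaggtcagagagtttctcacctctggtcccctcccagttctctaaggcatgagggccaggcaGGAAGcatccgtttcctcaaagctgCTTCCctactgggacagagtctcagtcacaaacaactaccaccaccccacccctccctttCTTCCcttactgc
Sema3a, chr5:13396534-13396833: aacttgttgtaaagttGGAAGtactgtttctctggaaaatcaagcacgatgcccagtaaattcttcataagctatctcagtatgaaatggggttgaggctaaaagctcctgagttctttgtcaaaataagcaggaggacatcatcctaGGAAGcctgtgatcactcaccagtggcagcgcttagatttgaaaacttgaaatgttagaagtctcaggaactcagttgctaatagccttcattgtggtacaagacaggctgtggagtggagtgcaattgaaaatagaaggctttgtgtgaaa
The Slit3 window held 6 GC boxes and no ETS core, the Robo4 window 3 ETS cores and the Sema3a window 2, and the Robo1 window neither motif. The CpG observed-to-expected ratio was 0.93 for Slit3 and 0.65 for Robo1 but 0.11 for Robo4 and 0.16 for Sema3a, against a median of 0.38 over all promoters. The RefSeq starts of Robo1 and Sema3a lie well inside the annotated gene spans, and other starts of these genes were not analysed here.

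Expression is given as normalized counts, which are read counts divided by 1 size factor per mouse. Library totals recovered from the table ran from 8509094 to 15285577 reads (median 11310008), with group medians from 9523976 in saline to 12905996 at 10 weeks of recovery, so depth and group moved together in part, and its part in the results was not tested. The lowest read number of any member in any mouse was 35, for Sema3a in saline. The test was limma, applied to log2(normalized count + 1) in 1 model of all 5 groups over the 17037 genes with a mean normalized count above 3. Here "rose" and "fell" mean a Benjamini-Hochberg adjusted p below 0.05 over those genes, and "called" means that the change also exceeded 1.5-fold. Saline mouse 1 and 2-week mouse 2 stood apart from their groups, with median correlations of 0.9421 and 0.9378 with the other mice of the group. Each lay outside the range of its group for 7 of the 10 members, so values without these 2 mice ("42 mice") are given wherever they changed a call or its size. The choice of these 2 mice rests in part on the tested values, so the 42-mouse p-values are not independent of it. The next lowest median correlations were 0.9473 and 0.9536 for 10-week recovery mice 4 and 7 and 0.9493 for saline mouse 6, which were kept. In whole skin, fewer cells of a type and less RNA per cell cannot be told apart.

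At 2 weeks of bleomycin 5 members passed the test. Slit3, Robo1 and Nrp2 fell while Sema3a and Nrp1 rose, where 17.4% of all genes rose and 18.2% fell. Only Slit3 was called, lower, and over all genes 9.3% were called higher and 7.43% lower in this comparison. At 4 weeks Robo2, Robo4 and Sema3a rose and Robo1 and Nrp2 fell, beside 18.4% of all genes that rose and 18.2% that fell. Here 1 member was called, Sema3a, higher, against 10.5% of all genes called higher and 7.37% lower. The 1 member of 10 called at each time is close to these shares. At 6 weeks of recovery Robo4 was called higher and Robo1 lower, and no other member passed. At that stage 3.33% of all genes were called higher and 1.71% lower, and 5% rose and 4.09% fell with no fold threshold. At 10 weeks of recovery Robo4 alone rose (3.54% of all genes rose and 2.3% fell), and 0 members were called by limma, edgeR or DESeq2 (2.05% of all genes were called higher and 0.998% lower by limma). There, 2 members, Robo4 and Sema3c, had an unadjusted p below 0.05 in limma. The 4 comparisons with saline share the same 10 saline mice and are not independent of each other.

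**Figure D1:**
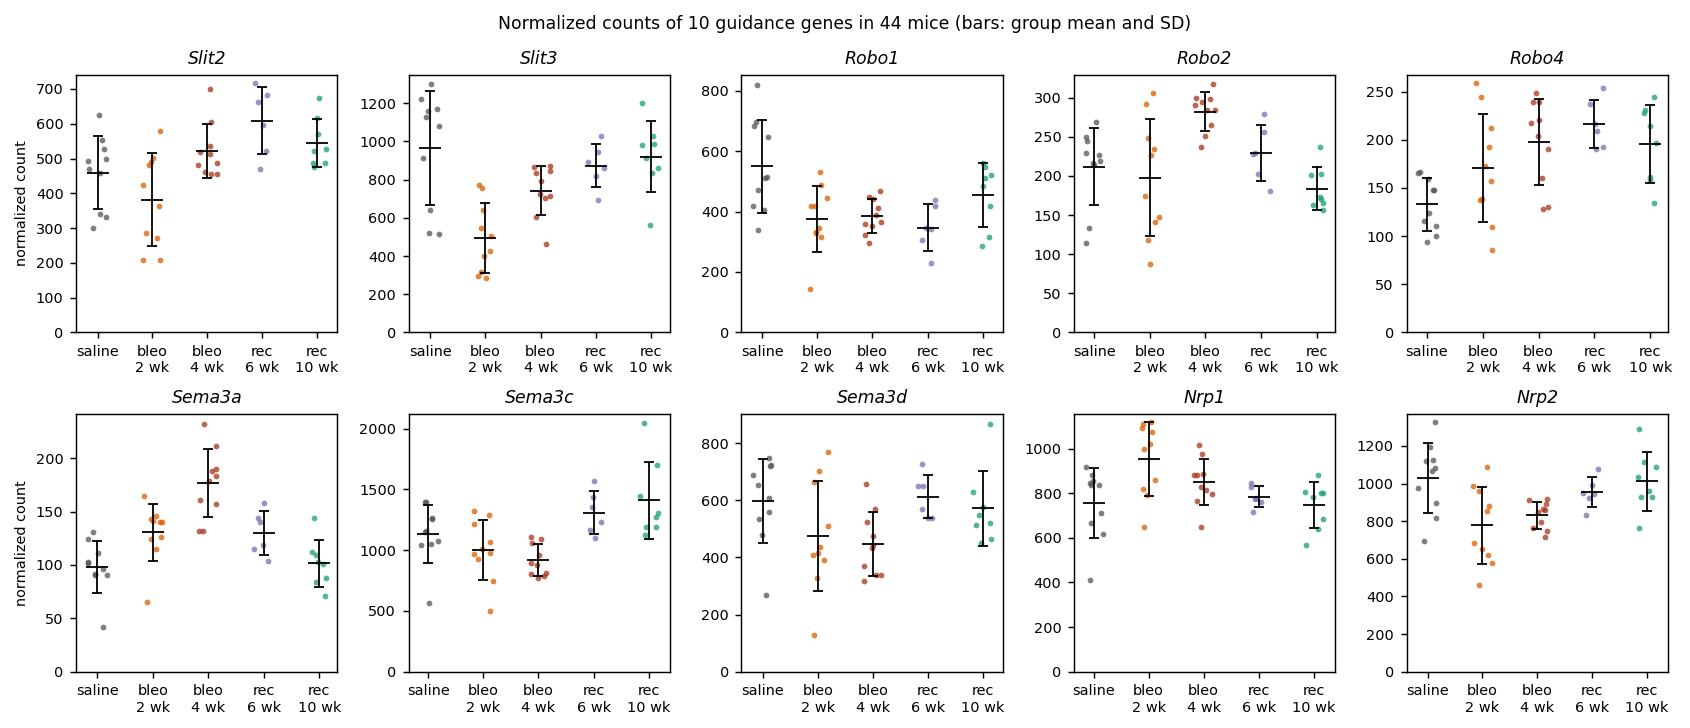
Normalized counts of the 10 guidance genes (y axes, from 0) in each mouse (points) of the 5 groups (x axes), with bars for the group mean ± SD. Sema3a in all 10 mice at 4 weeks of bleomycin (132 to 232) and Robo4 in all 6 mice at 6 weeks of recovery (190 to 254) lay above every saline mouse.

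**Figure D2:**
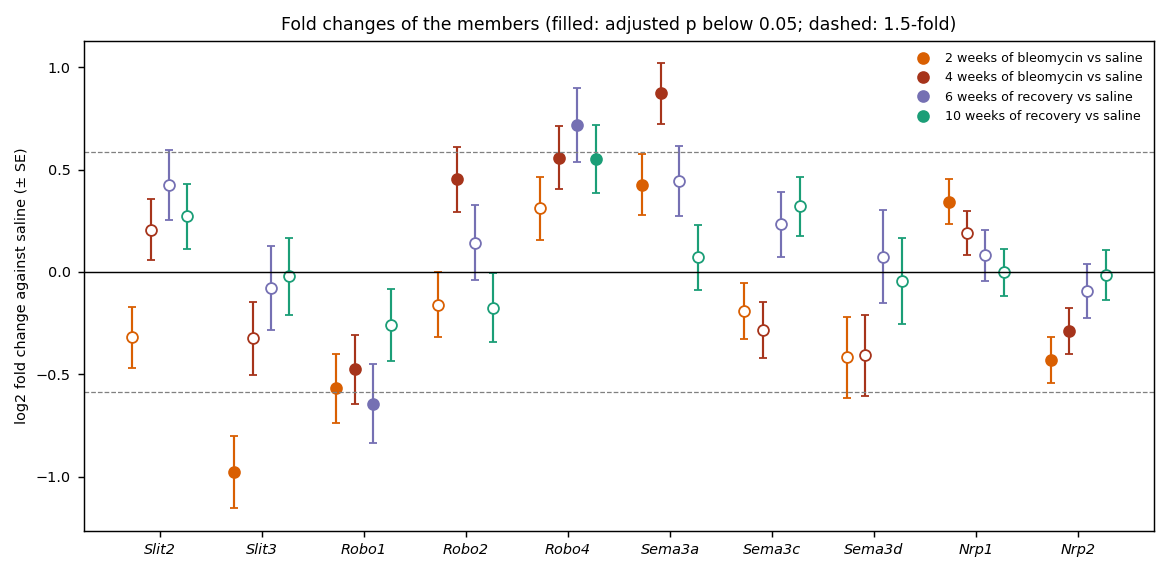
Log2 fold change ± SE against saline (y axis) of each member (x axis) at the 4 later stages (colours). Filled points have an adjusted p below 0.05 and dashed lines mark 1.5-fold. The points beyond 1.5-fold with an adjusted p below 0.05 are Slit3 at 2 weeks (-0.98), Sema3a at 4 weeks (0.87), and Robo1 (-0.64) and Robo4 (0.72) at 6 weeks of recovery.

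Slit3 (ENSMUSG00000056427.8, chr11:35121224-35708507, + strand, GRCm38) showed the largest change of any member. It ranged from 513 to 1300 normalized counts in saline (median 1106) and from 284 to 772 at 2 weeks (median 466). The 2-week mice were all below the saline mean of 966 ± 300 (SD, n = 10), and 6 of 10 were below the lowest saline mouse, although the groups overlapped. Slit3 fell by 0.98 on the log2 scale (SE 0.18, adjusted p = 2.01e-05), a 1.97-fold change. At 4 weeks it ranged from 465 to 871 (median 760), at 6 weeks of recovery from 696 to 1027 (median 877) and at 10 weeks from 562 to 1204 (median 946). These later groups lay within the saline range except for 1 mouse at 4 weeks, which was below it. Their log2 differences from saline of -0.33, -0.08 and -0.02 did not pass the test. From 2 to 4 weeks of bleomycin Slit3 rose by 0.65 (SE 0.18, adjusted p = 0.0218), which did not pass without 2-week mouse 5 (0.59, adjusted p = 0.0509) and passed in 42 mice at under 1.5-fold (0.57, adjusted p = 0.0373). In the same 2-week skin, 7 of 10 fibroblast markers were called lower and their summed level ran from 51607 to 178592 normalized counts, against 103724 to 238905 in saline. At 4 weeks, where Slit3 did not pass, the sum ran from 86147 to 229946. The mean log2 level of these markers was 11.964 there, against 11.75 at 2 weeks and 12.645 in saline. No marker of any list was at 0 in all mice of a group, and the part of fibroblast content in the Slit3 result was not tested.

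Slit2 (ENSMUSG00000031558.13, chr5:47983138-48307733, + strand), the other ligand, ran from 299 to 626 normalized counts in saline (median 482), from 207 to 578 at 2 weeks (median 395) and from 455 to 701 at 4 weeks (median 500). In recovered skin it ran from 470 to 716 at 6 weeks (median 629) and from 476 to 673 at 10 weeks (median 524). The lowest mice were therefore those at 2 weeks, 4 of which were below every saline mouse, and the highest were those at 6 weeks of recovery, 3 of which were above every saline mouse. None of the differences from saline passed the test, with log2 values of -0.32 at 2 weeks (SE 0.15, adjusted p = 0.0905), 0.20 at 4 weeks (adjusted p = 0.292), 0.42 at 6 weeks of recovery (adjusted p = 0.107) and 0.27 at 10 weeks (adjusted p = 0.367). Between 2 and 4 weeks of bleomycin Slit2 rose by 0.52 (SE 0.15, adjusted p = 0.0281). This difference, which was under 1.5-fold, no longer passed without any 1 of 5 mice, namely 2-week mice 2, 5 and 7 and 4-week mice 5 and 9 (adjusted p from 0.0536 to 0.0658), and in 42 mice (0.44, adjusted p = 0.0505).

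Robo1 (ENSMUSG00000022883.10, chr16:72308306-73046095, + strand), a broadly expressed SLIT receptor, fell in 3 of the 4 comparisons with saline. It ranged from 339 to 820 normalized counts in saline (median 512), from 143 to 531 at 2 weeks (median 383) and from 295 to 469 at 4 weeks (median 378). It ranged from 229 to 439 at 6 weeks of recovery (median 344) and from 286 to 562 at 10 weeks (median 499). Every mouse at 2 and 4 weeks of bleomycin and at 6 weeks of recovery was below the saline mean of 550 ± 154 (SD, n = 10), but all groups overlapped with saline. The fall was 0.57 at 2 weeks (log2, SE 0.17, adjusted p = 0.00656), 0.47 at 4 weeks (SE 0.17, adjusted p = 0.0231) and 0.64 at 6 weeks of recovery (SE 0.19, adjusted p = 0.0285, 1.56-fold). At 10 weeks the difference of -0.26 did not pass (adjusted p = 0.474), and the direct comparison of 10 with 6 weeks of recovery did not pass either (0.39, adjusted p = 0.438). Saline mouse 1 had the highest Robo1 value. In 42 mice the 2-week fall was 0.35 (adjusted p = 0.0466), the 4-week fall 0.41 (adjusted p = 0.0173) and the 6-week recovery fall 0.57 (adjusted p = 0.0155), which is under 1.5-fold. With single mice left out, the 4-week fall, which was under 1.5-fold, did not pass without saline mouse 1 (adjusted p = 0.0571). The 6-week recovery fall did not pass without saline mouse 1 or 4 or recovery mouse 1, 3 or 5, with adjusted p from 0.0506 to 0.13.

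Robo2 (ENSMUSG00000052516.15, chr16:73891839-74411825, - strand), a second SLIT receptor with a long-standing role in axon guidance, moved the other way at 4 weeks. It ranged from 114 to 269 normalized counts in saline (median 223), from 87.1 to 306 at 2 weeks (median 200) and from 237 to 318 at 4 weeks (median 287). All 10 mice at 4 weeks were above the saline mean of 212 ± 49.5 (SD, n = 10) and 7 were above every saline mouse. In recovered skin the values ran from 181 to 279 at 6 weeks (median 229) and from 156 to 237 at 10 weeks (median 172), inside or close to the saline range. Robo2 rose by 0.45 at 4 weeks against saline (log2, SE 0.16, adjusted p = 0.023), which did not pass without saline mouse 1 (0.36, adjusted p = 0.066) or saline mouse 2 (0.38, adjusted p = 0.0547) but passed in 42 mice (0.36, adjusted p = 0.0286). From 2 to 4 weeks it rose by 0.61 (SE 0.16, adjusted p = 0.0169), and in 42 mice by 0.49 (adjusted p = 0.0183).

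Robo4 (ENSMUSG00000032125.17, chr9:37401897-37415115, + strand), the endothelial receptor, was higher than saline at 4 weeks and in both recovery groups. It is also 1 of the genes that the study picked from these same samples for bundle alignment, so its direction here is not independent evidence. Saline mice ran from 93.6 to 166 normalized counts (median 136), 2-week mice from 86.0 to 259 (median 165) and 4-week mice from 128 to 248 (median 210). The 6-week recovery mice ran from 190 to 254 (median 213) and all 6 were above every saline mouse, while the 10-week mice ran from 134 to 244 (median 205), with 5 of 8 above every saline mouse. The rise was 0.31 at 2 weeks, which did not pass (SE 0.16, adjusted p = 0.12), 0.56 at 4 weeks (SE 0.16, adjusted p = 0.004), 0.72 at 6 weeks of recovery (SE 0.18, adjusted p = 0.00821, 1.65-fold) and 0.55 at 10 weeks (SE 0.17, adjusted p = 0.0376). The 10-week rise no longer passed without any 1 of 10 mice, which were saline mice 1, 2, 3, 5 and 6 and recovery mice 1, 4, 5, 6 and 7 (adjusted p from 0.0527 to 0.0846), and it passed narrowly in 42 mice (0.51, adjusted p = 0.0499). Blood endothelial markers, by mean log2 level, stood at 8.396 in saline and 8.763 in 2-week skin, where Robo4 did not pass. In that 2-week skin 3 of the 10 markers were called higher. The markers were lower in 10-week recovery skin, at 8.74, where Robo4 passed. They stood at 8.824 in 4-week skin and 8.982 in 6-week recovery skin. Their summed level ran from 2372 to 4951 normalized counts in saline, from 4120 to 6936 at 4 weeks and from 5153 to 6466 at 6 weeks of recovery, with 3 and 5 of the 10 markers called higher at these 2 later stages and a median log2 change of 0.48 and 0.64. At 10 weeks of recovery 1 of the 10 was called higher. The part of endothelial content in the Robo4 result was not tested.

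Sema3a (ENSMUSG00000028883.15, chr5:13125414-13602565, + strand), a repellent of sensory axons that binds Nrp1, was higher at 4 weeks than in any saline mouse. It ranged from 41.7 to 131 normalized counts in saline (median 99.0), from 65 to 165 at 2 weeks (median 140) and from 132 to 232 at 4 weeks (median 181). All 10 mice at 4 weeks were above every saline mouse, and 6 of 10 were at 2 weeks. The 6-week recovery mice ran from 104 to 158 (median 130), with 3 of 6 above every saline mouse, and the 10-week mice from 70.9 to 144 (median 102). Sema3a rose by 0.42 at 2 weeks (log2, SE 0.15, adjusted p = 0.0226) and by 0.87 at 4 weeks (SE 0.15, adjusted p = 8.09e-06, 1.83-fold). Its differences from saline of 0.44 at 6 weeks of recovery (adjusted p = 0.0942) and 0.07 at 10 weeks (adjusted p = 0.882) did not pass. Saline mouse 1 held the lowest value, 41.7, and the next saline mouse was at 90.1. Without that mouse the 2-week rise did not pass (0.30, adjusted p = 0.0697), whereas in 42 mice it passed (0.40, adjusted p = 0.00352), and the 4-week rise in 42 mice was 0.74 (adjusted p = 3.68e-07). Lymphatic endothelial markers rose at 4 weeks, with 4 of 6 called higher and a summed level from 2922 to 4252 against 1290 to 3086 in saline, and 7 of 8 Schwann cell markers were called higher at that stage. At 6 weeks of recovery, where Sema3a did not pass, the lymphatic sum ran from 3341 to 3938. The Schwann cell sum ran from 4692 to 7683 there and from 4188 to 7083 at 4 weeks. The part of either list in the Sema3a result was not tested.

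Sema3c (ENSMUSG00000028780.11, chr5:17574281-17730268, + strand), a class 3 semaphorin that guides vessel and neural crest cells, did not differ detectably from saline but was higher in recovered skin than at 4 weeks of bleomycin. It ran from 569 to 1395 normalized counts in saline (median 1155), from 499 to 1326 at 2 weeks (median 993) and from 767 to 1111 at 4 weeks (median 886). It ran from 1101 to 1571 at 6 weeks of recovery (median 1294) and from 1126 to 2045 at 10 weeks (median 1289). Every 4-week mouse was below the saline mean of 1136 ± 237 (SD, n = 10), and the 4-week and 10-week recovery groups did not overlap. No difference from saline passed in 44 mice, with log2 values from -0.28 at 4 weeks (SE 0.14, adjusted p = 0.102) to 0.32 at 10 weeks of recovery (SE 0.15, adjusted p = 0.207). The 4-week difference passed in 42 mice (-0.39, adjusted p = 0.00195) and without saline mouse 1 alone (-0.39, adjusted p = 0.0115). That mouse had the lowest saline value, 569, and the next was at 1039.

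Sema3d (ENSMUSG00000040254.9, chr5:12383385-12588948, + strand), a related semaphorin ligand, had the highest coefficient of variation of any member and group, 40.3% at 2 weeks. It ran from 268 to 748 normalized counts in saline (median 631), from 130 to 769 at 2 weeks (median 427) and from 319 to 656 at 4 weeks (median 439). The recovered mice ran from 537 to 727 at 6 weeks (median 610) and from 450 to 866 at 10 weeks (median 534). All groups overlapped. The log2 differences from saline were -0.42 at 2 weeks (SE 0.20, adjusted p = 0.0991) and -0.41 at 4 weeks (SE 0.20, adjusted p = 0.104), and did not pass in 44 mice. With 1 mouse left out at a time the 2-week difference ran from -0.539 without saline mouse 1 (adjusted p = 0.0232) to -0.225 without 2-week mouse 2 (adjusted p = 0.28), and it also passed without 2-week mouse 7 (-0.51, adjusted p = 0.0404). The 4-week difference passed in 42 mice (-0.53, adjusted p = 0.00232), without saline mouse 1 alone (-0.53, adjusted p = 0.0258) and without 2-week mouse 2 alone (-0.41, adjusted p = 0.0348).

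Nrp1 (ENSMUSG00000025810.8, chr8:128358604-128503363, + strand) is the co-receptor for Sema3a and for vascular endothelial growth factor. It ran from 410 to 918 normalized counts in saline (median 837), from 647 to 1120 at 2 weeks (median 1009) and from 648 to 1015 at 4 weeks (median 853). In recovered skin it ran from 716 to 844 at 6 weeks (median 776) and from 569 to 882 at 10 weeks (median 792). The 2-week mice were highest, 6 of 10 being above every saline mouse. Nrp1 rose by 0.34 at 2 weeks (log2, SE 0.11, adjusted p = 0.0104) and by 0.24 in 42 mice (adjusted p = 0.0443), and its differences of 0.19, 0.08 and -0.002 at the later stages did not pass. Blood endothelial markers at 2 weeks had a median log2 change of 0.38 with 3 of 10 called higher, and macrophage markers had 5 of 8 called higher. The part of either in the Nrp1 result was not tested.

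Nrp2 (ENSMUSG00000025969.13, chr1:62703285-62818695, + strand), the co-receptor best known from lymphatic vessels and nerves, fell at 2 weeks, when Nrp1 rose. It ran from 694 to 1327 normalized counts in saline (median 1074), from 462 to 1089 at 2 weeks (median 769) and from 716 to 918 at 4 weeks (median 855). It ran from 835 to 1077 at 6 weeks of recovery (median 946) and from 761 to 1289 at 10 weeks (median 995). At 2 weeks 5 of 10 mice were below every saline mouse, and at 4 weeks all 10 were below the saline mean of 1029 ± 187 (SD, n = 10). Nrp2 fell by 0.43 at 2 weeks (log2, SE 0.11, adjusted p = 0.00246) and by 0.37 in 42 mice (adjusted p = 0.0116). The 4-week fall of 0.29 (SE 0.11, adjusted p = 0.0427) did not pass in 42 mice (adjusted p = 0.0884) and without any 1 of 10 single mice, namely saline mice 1, 3, 4, 5, 7 and 10 and 4-week mice 1, 3, 6 and 7 (adjusted p from 0.0605 to 0.0942).

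The groups were also compared directly with each other. From 2 to 4 weeks of bleomycin the changes went up, with Slit2, Slit3 and Robo2 rising and 2 of these, Slit3 and Robo2, called (1.57-fold and 1.53-fold). Over all genes 1.49% were called higher and 0.863% lower in this comparison, and 3.06% rose and 2.55% fell. Both calls fell under 1.5-fold in 42 mice, leaving 0 called, and 0 were called without 2-week mouse 2 or without 2-week mouse 5. Counts of 1 were obtained without 2-week mouse 1, 6 or 7. Sema3a at 4 weeks was 0.45 above its 2-week level, which did not pass in 44 mice (SE 0.15, adjusted p = 0.066) and passed in 42 (0.34, adjusted p = 0.0455).

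Sema3c was higher at 6 weeks of recovery than at 4 weeks of bleomycin. It rose by 0.52 (SE 0.16, adjusted p = 0.0135, 1.43-fold), with only the highest 4-week mouse, at 1111, above the lowest recovery mouse, at 1101. By limma, edgeR and DESeq2 0 members were called in this comparison, 3 (Sema3a, Sema3c and Sema3d) had an unadjusted p below 0.05 in limma, and 4.8% of all genes were called higher and 7.14% lower, with 11.6% that rose and 13.4% that fell. Sema3a was 0.43 lower (SE 0.17), which did not pass (adjusted p = 0.0627) and passed in 42 mice (adjusted p = 0.0054). Sema3d was 0.48 higher (SE 0.23), which did not pass (adjusted p = 0.121). It passed in 42 mice (adjusted p = 0.0165), without 2-week mouse 2 alone (adjusted p = 0.0407), with only the groups compared (adjusted p = 0.0118) and with array weights (0.58, adjusted p = 0.000394).

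A comparison added after the data had been seen set 10 weeks of recovery against 4 weeks of bleomycin. Here Sema3a fell by 0.80 (SE 0.16, adjusted p = 9.55e-05, 1.74-fold), Robo2 fell by 0.63 (SE 0.17, adjusted p = 0.00347, 1.54-fold) and Sema3c rose by 0.60 (SE 0.15, adjusted p = 0.00109, 1.52-fold). The 3 members called here stand beside 6.73% of all genes called higher and 9.1% lower, and 16.7% that rose and 16% that fell. Sema3d, 0.36 higher (SE 0.21, adjusted p = 0.188), passed in 42 mice (adjusted p = 0.0419) and with array weights (0.39, adjusted p = 0.0147). Robo4 did not differ detectably between these groups (-0.01, adjusted p = 0.983). Between 10 and 6 weeks of recovery 0 members were called by limma, edgeR or DESeq2, and 1 member, Sema3a, had an unadjusted p below 0.05 (-0.37, SE 0.18, p = 0.0454, adjusted p = 0.406 in limma). In that comparison 0.0176% of all genes were called higher and 0.0704% lower, and 0.0235% rose and 0.0704% fell.

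Recovered skin was also set against 2 weeks of bleomycin, in 2 further comparisons added after the data had been seen, where both SLIT ligands were called higher. Slit3 at 6 weeks of recovery was 0.90 above its 2-week level (log2, SE 0.21, adjusted p = 0.000639, 1.86-fold) and Slit2 0.74 (SE 0.17, adjusted p = 0.00074, 1.67-fold). Sema3c rose by 0.42 (SE 0.16, adjusted p = 0.0367) and Nrp2 by 0.34 (SE 0.13, adjusted p = 0.0445). Both passed in 42 mice (adjusted p = 0.0279 for Sema3c and 0.0487 for Nrp2), but Sema3c did not pass without any 1 of 5 mice and Nrp2 without any 1 of 10. The 2 called and 4 risen members stand beside 7.1% of all genes called higher, 8.21% called lower, 15.5% that rose and 16.4% that fell. In the other comparison, with 10 weeks of recovery, Slit3 was 0.96 higher (SE 0.19, adjusted p = 7.36e-05, 1.94-fold) and Slit2 0.59 (SE 0.16, adjusted p = 0.00282, 1.51-fold). Slit2 was under 1.5-fold in 42 mice (0.50, adjusted p = 0.00647) and without any 1 of 7 single mice, namely 2-week mice 2, 5, 6 and 7 and recovery mice 1, 5 and 7. Sema3c rose by 0.51 (SE 0.15, adjusted p = 0.0051), Nrp2 rose by 0.41 (SE 0.12, adjusted p = 0.00629) and Nrp1 fell by 0.35 (SE 0.12, adjusted p = 0.0164). Nrp1 did not pass without recovery mouse 8 (-0.29, adjusted p = 0.051), and Sema3a, 0.35 lower in 44 mice (adjusted p = 0.0822), passed in 42 mice (-0.46, adjusted p = 0.0012). Over all genes 7.6% were called higher and 8.78% lower, and 17.2% rose and 16.3% fell. Of 10 fibroblast markers, 6 were called higher at 6 weeks and 3 at 10 weeks of recovery against the 2-week skin. Their median sum was 100200 at 2 weeks, 202249 at 6 and 109665 at 10 weeks of recovery, and 150278 in saline. Their mean log2 level was 11.75, 12.716, 12.327 and 12.645 in the same order. The part of fibroblast content in these results was not tested. The 3 comparisons with 2-week skin share the same 10 mice.

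Ordered by group mean on the log2 scale, most neighbouring groups could not be told apart. For Slit3 the order from low to high was 2 weeks, 4 weeks, 6 weeks of recovery, 10 weeks of recovery, saline, and only the first step, from 2 to 4 weeks, passed. Sema3a ran saline, 10 weeks of recovery, 2 weeks, 6 weeks of recovery, 4 weeks, and Robo4 ran saline, 2 weeks, 10 weeks of recovery, 4 weeks, 6 weeks of recovery, with no neighbouring step that passed in either. Robo1 began with 6 weeks of recovery, then 2 weeks, 4 weeks, 10 weeks of recovery and saline, again without a passing step. Over the 10 members the median log2 difference from saline was -0.26 and -0.05 after 2 and 4 weeks of bleomycin, and 0.11 and -0.01 after 6 and 10 weeks of recovery, against medians over all tested genes of 0.003, -0.001, -0.002 and 0.001.

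Levels of different genes were compared only per kilobase of the principal transcript. In saline skin Nrp1 (211 normalized counts per kb), Sema3c (207), Slit3 (185) and Nrp2 (162) were the most abundant members and Sema3a (16.5) the least, with Sema3d at 94.9, Robo1 at 72.8, Slit2 at 46.2, Robo4 at 41.2 and Robo2 at 35.4. By this measure Slit3 stood above Slit2, and Robo1 above Robo2 and Robo4. Dividing by the length of all exons together put Slit3 and Sema3c first at 159 each and Nrp1 after Nrp2 at 77.4 and 86.9, while Sema3a stayed last at 7.07. At 2 weeks Slit3 stood at 94.5 per kb and Slit2 at 38.3, and at 6 weeks of recovery at 167 and 61.1.

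Within groups, each member was set against the mean log2 level of marker lists for cell types that whole skin contains, over 44 mice and after taking off the group means. There were 50 such relations, 28 of which passed by Pearson's r and 21 by Spearman's rho in permutation tests with 100000 resamples and Benjamini-Hochberg adjustment, and all that passed were positive. Robo4 and the blood endothelial list gave the highest value, r = 0.884 and rho = 0.875 (permutation p = 1e-05 for each, the smallest these permutations can give, adjusted 0.0001 and 0.000125). With the 2 mice most distant from the list's median left out it was 0.877, and it lay between 0.74 and 0.98 inside each of the 5 groups. Nrp1 (r = 0.747, rho = 0.662) and Slit3 (r = 0.699, rho = 0.674) also followed the blood endothelial list, at 0.614 and 0.665 without the 2 farthest mice, but r inside single groups went down to 0.22 for Nrp1 and to -0.46 for Slit3.

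The lymphatic endothelial list went with Slit2 (r = 0.764, rho = 0.723), Robo2 (r = 0.739, rho = 0.716) and Sema3a (r = 0.734, rho = 0.584). Without the 2 farthest mice, which were saline mouse 1 and 2-week mouse 2, these were 0.765, 0.597 and 0.491. Of the 3, Sema3a alone had a positive r in every group, from 0.59 to 0.96, with r in single groups down to 0.00 for Slit2 and to -0.33 for Robo2. Most such relations were not particular to 1 list. By r, 6 members passed for each of the blood endothelial, lymphatic endothelial and fibroblast lists, and 8 for the skeletal muscle list. Fibroblast markers gave r = 0.692 for Slit2, 0.678 for Slit3, 0.666 for Robo2, 0.606 for Nrp1, 0.58 for Robo4 and 0.472 for Sema3a. Lymphatic markers also gave 0.672 for Slit3, 0.678 for Nrp1 and 0.566 for Robo4. Robo1 and Nrp2 were the only members related to growing hair follicle markers. Robo1 gave r = 0.599 and rho = 0.617 (adjusted permutation p = 0.000167 and 0.00025), 0.561 without the 2 farthest mice and 0.29 to 0.98 inside groups. Nrp2 gave r = 0.445 and rho = 0.419 (adjusted permutation p = 0.0012 and 0.00628), with -0.22 to 0.91 inside groups. Summed hair follicle markers ran from 2049 to 223506 normalized counts in saline, from 67.3 to 1903 at 2 weeks and from 97.5 to 5101 at 4 weeks, all 8 tested markers being called lower at both times. The sum ran from 107 to 102687 at 6 weeks of recovery, where Robo1 was called lower, and from 1334 to 164035 at 10 weeks. The mean log2 level was 10.769 in saline, 2.888 and 4.16 at 2 and 4 weeks, and 8.63 and 10.803 at 6 and 10 weeks of recovery. The part of hair follicle stage in the Robo1 and Nrp2 falls was not tested. For skeletal muscle markers, Robo2 (r = 0.485, rho = 0.384), Robo4 (r = 0.395, rho = 0.469) and Nrp1 (r = 0.47, rho = 0.412) passed by both measures. Slit2 (r = 0.387, rho = 0.352) and Slit3 (r = 0.397, rho = 0.361) passed by r only. The values of Sema3a (r = 0.523, rho = 0.247), Sema3c (r = 0.535, rho = 0.315) and Sema3d (r = 0.454, rho = 0.205) also passed by r but not by rho. These 3 semaphorin values fell to 0.39, 0.324 and 0.288 without the 2 farthest mice, so that they rest in part on those mice. The points share library and depth, and a relation of this kind does not locate a gene in a cell type.

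**Figure D3:**
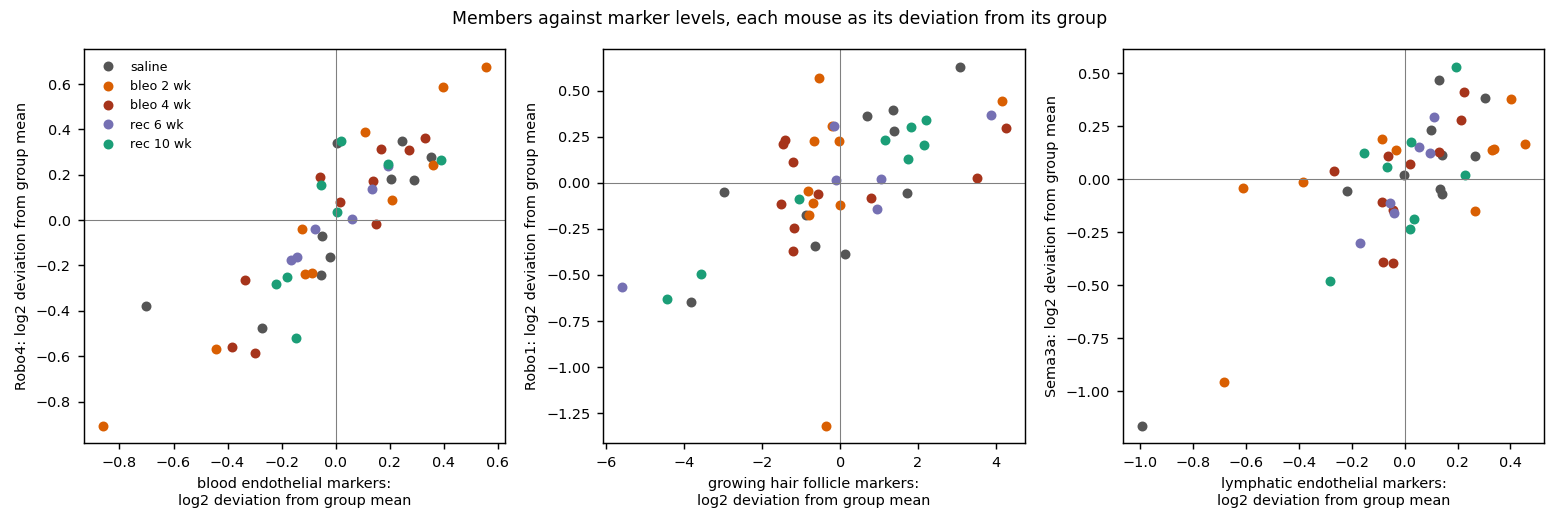
Deviation from the group mean in each of the 44 mice (points, coloured by group) of a member's log2 level (y axes) and of the mean log2 level of a marker list (x axes). Robo4 lies close to a line with blood endothelial markers (r = 0.884), Robo1 less closely with growing hair follicle markers (r = 0.599), and Sema3a with lymphatic endothelial markers (r = 0.734), where the 2 farthest mice lie at the low end.

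**Figure D4:**
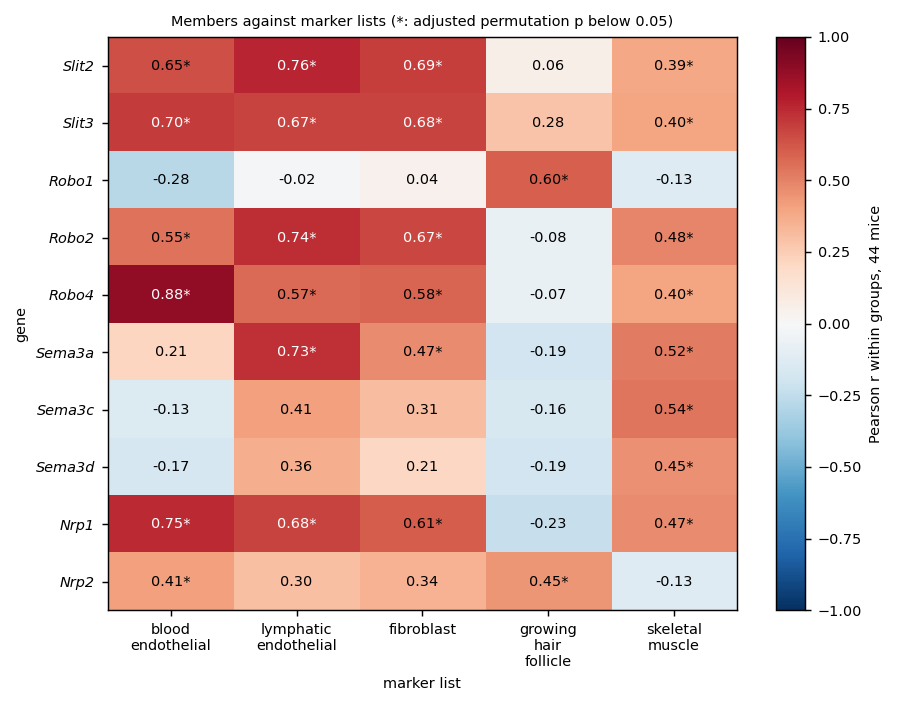
Pearson's r over 44 mice, after taking off group means, between each of the 10 members (rows) and 5 marker lists (columns), on a colour scale from negative to positive. Stars mark an adjusted permutation p below 0.05. The darkest cell is Robo4 with blood endothelial markers, and Robo1 and Nrp2 alone have stars for growing hair follicle.

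The genes most like each member within groups were found among 17036 others by the same measure, as a description. Robo4 went with Pdgfrb (r = 0.884), Vwf (0.876) and Esam (0.858), which are genes of pericytes and endothelium. Sema3a went with Mmrn1 (0.83), a lymphatic endothelial gene that is 1 of the 6 markers above, Adcy1 (0.829) and 3110039I08Rik (0.82). Slit3 went with Lrp1 (0.89), Nynrin (0.889) and Lamc1 (0.876), and Slit2 with Lama4 (0.86), Lamc1 (0.841) and Gprc5b (0.84), so that the laminin gene Lamc1 was near both ligands. Robo1 went with the epidermal growth factor receptor gene Egfr (0.867), Wnt5a (0.833) and Zfp664 (0.825), and Robo2 with Prkacb (0.822), Cdh2 (0.815) and the smooth muscle myosin gene Myh11 (0.815).

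Sema3c and Sema3d were near neighbours of each other (r = 0.88), and both were close to Twsg1 (0.905 and 0.897), with Nr3c1 (0.887) also near Sema3c and Skint5 (0.915) and Skint4 (0.898) near Sema3d. Nrp1 went with Epb41l2 (0.873), Dusp3 (0.85) and the endothelial gene Cd93 (0.849), and Nrp2 with the laminin gene Lamb1 (0.876), Fads2 (0.837) and Fam168b (0.832). Among the members themselves Slit2 and Slit3 (0.82), Slit3 and Robo4 (0.78) and Slit2 and Robo2 (0.728) followed each other closely.

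The remaining genes of these pathways gave the setting. Of 15 other SLIT and ROBO pathway genes tested, 4 rose and 5 fell at 2 weeks, and 3 rose and 4 fell at 4 weeks, with 2 called in each direction both times. The 15 include Robo3, which reached the filter on low values through the bleomycin groups, so that its part in these counts is no test. Apart from Robo3, the counts can be read against the shares of all genes given above (17.4% rose and 18.2% fell at 2 weeks, 18.4% and 18.2% at 4 weeks). The same holds for the 2-week and 4-week counts of the lists that follow. Slit1, the third SLIT ligand, ran from 5.96 to 24.1 normalized counts in saline (median 11.6), from 29.8 to 64.3 at 2 weeks (median 48.7) and from 46.9 to 95.2 at 4 weeks (median 64.1), and then from 14.4 to 26.7 at 6 weeks of recovery (median 23.2) and from 12.2 to 28.5 at 10 weeks (median 22.3). All mice at 2 and 4 weeks of bleomycin were above every saline mouse, while the recovered groups overlapped with saline and all recovered mice were below every 4-week mouse. It rose by 1.81 at 2 weeks (log2, SE 0.19, adjusted p = 3.15e-10) and by 2.26 at 4 weeks (adjusted p = 6.71e-13). After 6 weeks of recovery it was still 0.78 above saline (adjusted p = 0.0202), and after 10 weeks 0.66 (adjusted p = 0.0459).

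Robo3, a divergent ROBO receptor, was near the detection limit, from 0 to 2.29 normalized counts in saline, 4.59 to 23.9 at 2 weeks, 2.93 to 20.3 at 4 weeks, and at most 2.19 in recovered skin. All 20 mice at 2 and 4 weeks of bleomycin were above every saline mouse. Robo3 reached the filter on low values through those groups, so that it is described without a test. Robo3 (chr9:37415669-37433246, - strand) lies next to Robo4 without overlapping it. Srgap1, an intracellular partner of ROBO receptors, ran from 217 to 327 in saline and from 143 to 207 at 2 weeks, without overlap, and stayed lower at 6 weeks of recovery (-0.55, adjusted p = 0.00146) and at 10 weeks (-0.40, adjusted p = 0.018).

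Of 17 other semaphorins, 2 rose and 5 fell at 2 weeks and 4 rose and 6 fell at 4 weeks. Sema4d, a membrane-bound semaphorin of immune cells, rose by 0.83 at 2 weeks (SE 0.14, adjusted p = 5.26e-06) and ran from 401 to 946 normalized counts there against 218 to 389 in saline. At 6 weeks of recovery 3 were called higher, beside 3.33% of all genes. At 10 weeks 1 rose and 3 fell without exceeding 1.5-fold, beside 3.54% of all genes that rose and 2.3% that fell. The class 3 gene Sema3f fell at 2 weeks (-0.28, SE 0.06, adjusted p = 0.00021) and at 4 weeks (-0.33, SE 0.06, adjusted p = 1.53e-05), whereas Sema3e and Sema3g passed at neither time.

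Among 9 plexins, a family of semaphorin receptors, 2 rose and 3 fell at both times. Plxna3, a partner in class 3 signalling, fell by 0.70 at 4 weeks (SE 0.10, adjusted p = 3.66e-07), and Plxnb3 was 1.00 higher at 6 weeks of recovery (SE 0.19, adjusted p = 0.000551). Of 15 genes that transmit semaphorin signals inside the cell, 2 rose and 5 fell at 2 weeks and 3 rose and 3 fell at 4 weeks. Dpysl5, a collapsin response mediator, fell by 0.88 at 2 weeks (SE 0.15, adjusted p = 8.84e-06) and by 1.00 at 4 weeks (adjusted p = 9.07e-07), while Rnd1 was 0.65 higher at 10 weeks of recovery (adjusted p = 0.0215).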

How the data were processed

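Skin RNA from 44 mice was sequenced by the authors as 50-base paired reads from stranded mRNA libraries, aligned with STAR (version 2.4.0) to mm10 and scaled with DESeq2 (version 1.12.3). Which program counted reads, with which strand setting and annotation, is not given in the sources used here. The deposited values are a normalized signal, in which each gene's read count was divided by 1 size factor per mouse. Dividing by the smallest step gave back whole reads for 100.0% of values in every mouse (tolerance 0.1 read). Of 43411 genes, 98.9% were matched to a symbol.

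Genes with a mean above 3 were tested with limma (version 3.58.1, R 4.3.3) on log2(value + 1), with trend and all 5 groups in 1 model. On the recovered reads, edgeR (4.0.16) called 2922, 3136, 893 and 570 genes against saline at 2 and 4 weeks and at 6 and 10 weeks of recovery, and DESeq2 (1.42.0) called 2914, 3130, 1022 and 656. Relations with markers used permutation tests in Python (scipy 1.17.1). Scripts were tested on simulated data. Coordinates and sequences are from GRCm38 annotation and RefSeq (GRCm38.p6).

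Genes named outside the 10 members are the 4 called genes of the other pathway lists with the largest change in each direction per comparison with saline, and the 3 genes most like each member. Others were named after their values were seen: Srgap1, Sema3e, Sema3f, Sema3g, Vegfa, Vegfb, Vegfd and, outside the comparison that names them, Slit1, Pgf, Emcn and Plxnb3. Members, lists and tests were chosen with earlier results of these data known. The labels mention 46 mice, of which 44 libraries were analysed here. No batch is named in the labels. The deposited table holds no comparison columns of the authors. Krt85, Tchh, Ryr1 and Ntn3 were not analysed here. The authors' library preparation was stranded, and no member shared exon bases with a gene that had reads.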

Additional observations from a re-analysis of the deposited data

Results flagged for a closer look

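In the 50 combinations of member and group, 4 had a mouse whose gap to the nearest other mouse was large for the range of its group, where chance alone gives about 1 in 20. These values came from 3 mice. Saline mouse 1 had 41.7 normalized counts of Sema3a, with the nearest saline mouse at 90.1, and 569 of Sema3c, with the nearest at 1039. At 2 weeks of bleomycin, mouse 2 had 65 of Sema3a, with the nearest at 115. At 10 weeks of recovery, mouse 3 had 866 of Sema3d, with the nearest at 630. Saline mouse 1 and 2-week mouse 2 are the same libraries that correlated least with their groups.

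Direct comparisons between treated or recovered groups differed for 7 members in limma with Benjamini-Hochberg adjustment. From 2 to 4 weeks of bleomycin the log2 differences were 0.52 for Slit2, 0.65 for Slit3 and 0.61 for Robo2. Sema3c was 0.52 higher at 6 weeks of recovery than at the end of treatment. In a comparison of 10 weeks of recovery with 4 weeks of bleomycin, which was added after the data were seen, Robo2 differed by -0.63, Sema3a by -0.80 and Sema3c by 0.60. In 2 more comparisons added after the data were seen, against 2 weeks of bleomycin, the differences at 6 weeks of recovery were 0.74 for Slit2, 0.90 for Slit3, 0.42 for Sema3c and 0.34 for Nrp2, and those at 10 weeks were 0.59 for Slit2, 0.96 for Slit3, 0.51 for Sema3c, -0.35 for Nrp1 and 0.41 for Nrp2. Slit2 was lower at 2 weeks than at 4 weeks in 42 mice too, but did not pass there (0.44, adjusted p = 0.0505), and Slit3 and Robo2 passed (0.57 and 0.49).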

How the results depend on the processing

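Over the 10 comparisons the 10 members gave 100 log2 fold changes, of which 29 passed. Of these, 21 still passed under each of 11 other settings, 18 with any 1 of the 44 mice left out, and 16 under all of these, and 0 of the 29 changed sign. Of the 71 that did not pass, 18 passed under some other setting and 15 changed sign somewhere. With no fold threshold the members counted were 5 each at 2 and 4 weeks, 1 after 10 weeks of recovery, and 1 when 6 weeks of recovery were set against 4 weeks of bleomycin. edgeR called 2 members at 4 weeks, adding Robo4 (0.59). In 42 mice 1 was called at 6 weeks of recovery. From 2 to 4 weeks of bleomycin, where 2 were called, 1 was called with only the groups compared, 1 by edgeR, 1 by DESeq2, 0 with array weights and 0 in 42 mice. Against 2 weeks of bleomycin, 4 members passed at 6 weeks of recovery and 5 at 10 weeks with no fold threshold, 1 was called at 6 weeks with array weights, and 1 was called at 10 weeks (Slit3) with quantile normalization, TMM, edgeR, DESeq2, array weights or 42 mice. Leaving out 1 mouse at a time gave 1 to 2 called members at 2 weeks (the other being Robo1), 1 to 2 at 4 weeks (Robo4), 1 to 2 in the 6-week and 0 to 1 in the 10-week recovery group (Robo4), 0 to 3 from 2 to 4 weeks, 2 to 3 for 10 weeks of recovery against 4 weeks and 1 to 2 against 2 weeks. Nrp2 at 4 weeks also did not pass with no filter on low values (adjusted p = 0.0646), quantile normalization (0.0681) and TMM (0.0583), and Robo4 at 10 weeks of recovery with no filter (0.0599). With only the groups compared, Sema3a (0.0742) and Nrp1 (0.0533) at 2 weeks and Slit2 (0.0839) and Robo2 (0.0572) from 2 to 4 weeks did not pass, while Sema3a fell from 4 weeks to 6 weeks of recovery (adjusted p = 0.0114), as it did by edgeR (0.036) and DESeq2 (0.0227). Of 50 marker relations 28 passed, and the number was 28 with a smaller pseudocount, 29 after TMM and 24 in 42 mice. The cause of these differences was not tested.

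Mouse numbers are shared between groups but do not pair the mice. Over 78 same-number pairs the median correlation of deviations was -0.002, the lowest -0.691, against -0.004 for other numbers, and 4 mice matched best with their own number. With a replicate block 1 member, Robo4 (0.63), was called at 10 weeks of recovery, and Slit2 rose at 6 weeks of recovery (0.51, adjusted p = 0.0263). DESeq2 moved the share of calls that were higher, over all genes, from 66.0% to 55.9% at 6 weeks of recovery, from 67.2% to 56.6% at 10 weeks and from 63.2% to 52.8% from 2 to 4 weeks, the last being 52.9% by edgeR. Sema3a had the fewest reads of any member in a mouse, 35, and the part of depth in its spread was not tested.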

Other observations

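Other guidance systems measured in the same skin are given as values. Over all genes tested, 17.4% rose and 18.2% fell in limma at 2 weeks of bleomycin, and 18.4% rose and 18.2% fell at 4 weeks. Netrins and their receptors, which attract or repel axons and vessels, had 8 tested genes, of which 6 fell in limma at 2 weeks and the other two did not pass, and 4 fell and 1 rose at 4 weeks. Ntn1 fell by 1.06 at 2 weeks (log2, SE 0.30, adjusted p = 0.00414) from a saline median of 22.2 normalized counts to 10.6, and its receptor gene Unc5b fell by 0.86 (SE 0.18, adjusted p = 0.00017). The same gene, Unc5b, is also counted among the other SLIT and ROBO pathway genes above, so the 2 lists overlap. At 10 weeks of recovery Ntn4 was 0.60 above saline (SE 0.13, adjusted p = 0.00235). Ephrins and Eph receptors, contact-dependent guidance molecules, had 18 tested genes, of which 10 fell and 1 rose at 2 weeks and 7 fell and 2 rose at 4 weeks. Ephb1 fell by 1.52 at 2 weeks (SE 0.41, adjusted p = 0.00287) and by 1.69 at 4 weeks (adjusted p = 0.000943), and Efna2 by 0.81 at 4 weeks (SE 0.20, adjusted p = 0.000926).

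Of 8 vascular endothelial growth factor genes and receptors, which share neuropilins with the semaphorins, 2 rose and 2 fell at 2 weeks. Pgf, placental growth factor, ran from 9.54 to 23.9 normalized counts in saline (median 17.0) and from 19.2 to 79.7 at 4 weeks (median 50.8), with 9 of 10 mice above every saline mouse. It rose by 1.03 at 2 weeks (SE 0.21, adjusted p = 0.000132) and by 1.497 at 4 weeks (adjusted p = 2.6e-07), and was 1.08 above saline after 6 weeks of recovery (adjusted p = 0.00346). Vegfd rose by 0.64 at 2 weeks (adjusted p = 2.9e-06) and 0.84 at 4 weeks (adjusted p = 1.15e-08), while Vegfa (-0.44, adjusted p = 0.00542) and Vegfb (-0.35, adjusted p = 0.0195) fell at 2 weeks.

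Emcn, Esam, Gfra3 and Sparcl1 were picked by the study from these same samples, so their directions are not independent evidence. Arhgdib was picked from its fibroblast cultures, from published human skin data and from its rise in this bleomycin model. Its direction is therefore not independent evidence either. Of the 5, 3 rose at 2 weeks and all 5 at 4 weeks, and 4 and 1 were higher after 6 and 10 weeks of recovery. Gfra3, a receptor subunit of sensory neurons and Schwann cells, ran from 36.5 to 107 normalized counts in saline and from 96.8 to 195 at 4 weeks, a rise of 1.13 (adjusted p = 4.69e-06), and all 6 mice at 6 weeks of recovery were above every saline mouse. Emcn, an endothelial surface gene, was 0.81 above saline at 6 weeks of recovery (SE 0.12, adjusted p = 2.41e-05). Schwann cell markers were called higher in 7 of 8 genes at 4 weeks and in 7 of 8 at 6 weeks of recovery, beside 10.5% and 3.33% of all genes.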
